A study of Mus musculus with 12 samples.

Results

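Luminal progenitors are cells of the inner epithelial layer of the mammary gland that lack hormone receptors, divide, and give rise to the milk-secreting alveolar cells of pregnancy. They carry the receptor Kit on their surface, depend on the ETS transcription factor Elf5 for alveolar fate, and express genes of retinoic acid synthesis and of innate defence. In mice and women they are thought to be the cell of origin of many basal-like mammary cancers. The 8 genes followed here, Kit, Elf5, Elf3, Ehf, Aldh1a3, Cd14, Lcn2 and Ltf, are markers of that state, and each was found by its symbol among the 54658 genes counted. All 8 passed the filter on low counts.

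RNA sequencing covered 9 mammary tumours and 3 preparations of enriched mammary epithelium. The tumours had the genotype Trp53R245W/+, a missense change in 1 allele of the gene for p53, and are named by their label numbers, 1, 4, 5, 14, 17, 20, 21, 24 and 27. The epithelium was wild-type (WT) and is numbered 1, 2 and 3. All animals were female F1 hybrids of the strains C57BL/6J and BALB/cJ. No age, Cre driver or transgene is given. Separate mice for separate tumours are not stated either, so p-values measure only the spread between these libraries. Genotype and the prefix of the library name both follow the group, so the p53 change, tumour state and any difference in handling cannot be told apart.

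The tumours held 19695318 to 33600076 gene counts and the epithelium 24247566 to 25543872. A value of 3 counts, taken as the floor, corresponded to between 0.0893 and 0.152 counts per 1000000 (CPM). Alignments outside genes made up 8.08% to 32.3% of the total in tumours and 39.9% to 41.5% in epithelium, without overlap. Tumour 4 stood apart, with 52.0% of alignments not unique, 22.6% of gene counts on the small RNA Rn7sk and a scaling factor of 0.557. The epithelium was not only epithelial, since 6 B cell genes summed to 1.80 to 60.2 CPM in tumours and to 595 to 842 CPM in epithelium, and 10 T and NK cell genes to 2.81 to 33.3 CPM in tumours and to 417 to 497 CPM in epithelium. The part that these cells play in the differences below was not tested, and in bulk RNA fewer cells of a type and less RNA per cell cannot be told apart.

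Across the 8 genes, Lcn2 rose in tumours and the other 7 did not pass the test (edgeR quasi-likelihood test, Benjamini-Hochberg adjusted p under 0.05 over 21456 genes). Over all genes, 8.89% were called higher in tumours and 11.4% lower, 20.3% in either direction. A count of 1 in 8 lies between the share called higher and the share in either direction, and does not set the 8 genes apart. No gene of the 8 was called lower, nor was any at an unadjusted p under 0.05. Ehf and Lcn2 passed that unadjusted threshold upward, and DESeq2 called the same pair higher, while limma-voom called Lcn2 higher and Aldh1a3 lower. Over all genes DESeq2 called 26.4% (13.6% higher and 12.8% lower) and limma-voom 49.5% (23.3% higher and 26.2% lower). The median log2 fold change, tumour over epithelium, was 1.28 over the 8 genes and 0.17 over all genes tested. The tumours differed widely among themselves in most of the 8, as the plot of CPM by library shows.

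**Figure D1:**
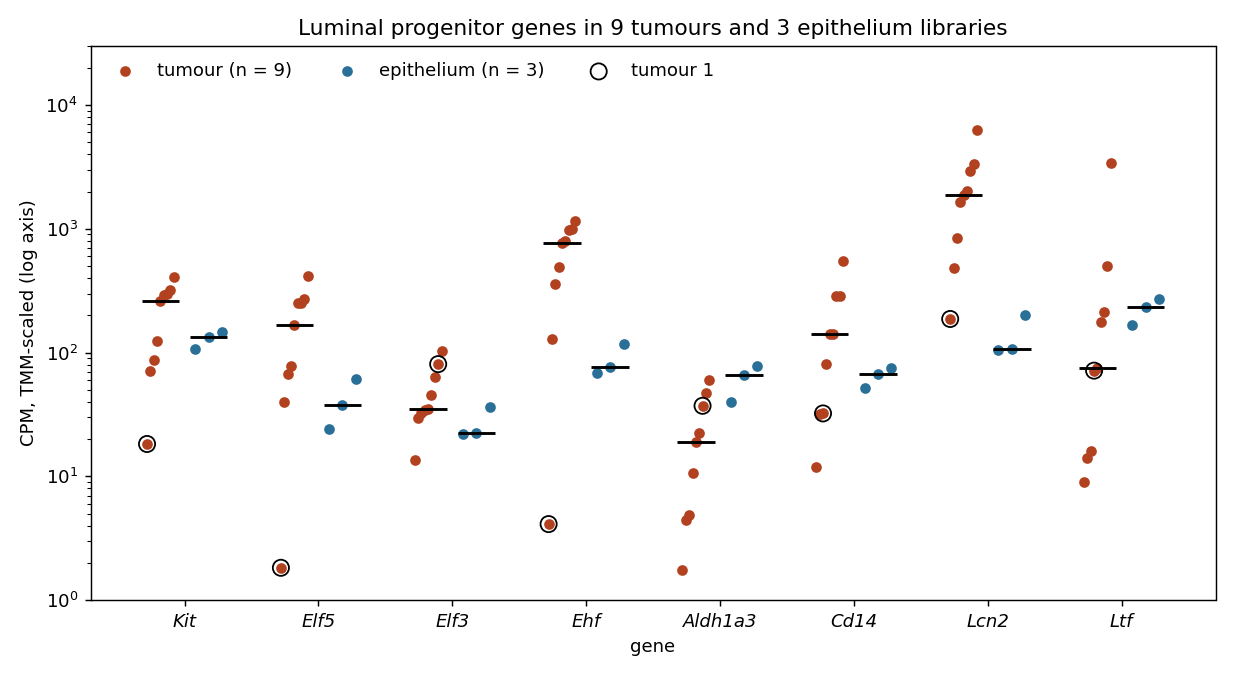
Expression of the 8 genes in every library, in CPM on a log axis, with tumours left of epithelium and 1 point per library. For each gene the 3 epithelium libraries lie closer together than the tumours, and their range is widest in Elf5, at 2.52-fold. The tumours spread from 18.3 to 411 CPM in Kit and from 8.99 to 3389 CPM in Ltf.

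The sequences just upstream of 4 of the genes are shown. Lcn2, the single gene called, is secreted and known as a target of the inflammatory factor NF-kappaB. Ltf, Elf3 and Kit, which were not called, are shown beside it. Of the 8 genes, 5 were found in the RefSeq promoter table (build GRCm38.p6), and the stretch printed for each is that free of annotated exons within the 250 bases before the start. Capitals mark the letters GGGNNNNNCC, the loose form of an NF-kappaB site, on either strand, with overlapping matches merged.
Lcn2, chr2:32387798-32387850, minus strand: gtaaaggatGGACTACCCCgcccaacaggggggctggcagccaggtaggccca
Ltf, chr9:111019042-111019270, plus strand: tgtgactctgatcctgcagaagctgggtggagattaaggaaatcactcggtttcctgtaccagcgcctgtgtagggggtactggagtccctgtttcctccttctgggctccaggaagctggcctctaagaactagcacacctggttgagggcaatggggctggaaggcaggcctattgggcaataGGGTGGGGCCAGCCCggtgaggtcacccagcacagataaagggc
Elf3, chr1:135258569-135258722, minus strand: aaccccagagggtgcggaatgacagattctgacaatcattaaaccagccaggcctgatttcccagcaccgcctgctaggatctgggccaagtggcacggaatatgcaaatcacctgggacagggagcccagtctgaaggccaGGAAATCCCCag
Kit, chr5:75574737-75574915, plus strand: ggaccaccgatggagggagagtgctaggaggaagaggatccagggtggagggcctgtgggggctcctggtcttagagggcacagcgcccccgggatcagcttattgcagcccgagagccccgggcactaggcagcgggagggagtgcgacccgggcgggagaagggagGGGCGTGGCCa

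Each of the 4 stretches held at least 1 match, and that of Ltf held 4 that overlap. Such letters stood in 45.8% of 32851 full promoter windows of 250 bases, so their presence is common. Those windows are longer than the stretches shown, which hold 53 to 229 bases. Elf5, the fifth gene in the table and not shown, held 1 match at 1 of its 2 start sites. A form of the ETS site, AGGAAG on either strand, was found in the windows of Kit, Lcn2 and Ltf. These are 3 of the 5 genes with a promoter in the table, against 29.5% of all windows. The 3 matches of Lcn2 lay outside the stretch shown and inside the annotated span of the gene. The 2 motifs do not overlap in the stretches shown, and a match is a description of letters.

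Kit is a receptor tyrosine kinase that binds stem cell factor and marks luminal progenitors, mast cells and melanocytes. Its gene lies on chromosome 5 from 75574916 to 75656722 (GRCm38, plus strand). Kit had a lowest value of 18.3 (tumour 1), a median of 261 and a highest value of 411 CPM (tumour 21) in tumours, against 107, 134 and 146 CPM in epithelium. Tumours 4, 14, 17, 21 and 27 lay above every epithelium library, tumours 1, 5 and 20 below, and tumour 24 between them, so the groups overlapped. Without scaling factors tumour 4 lay within the epithelium range, at 162 CPM against 127 to 169 CPM, and tumour 24 just below it. Kit averaged 209 ± 136 CPM in tumours (SD, n = 9) and 129 ± 20.01 CPM in epithelium (SD, n = 3). Its log2 fold change of 0.69 (SE 0.69) did not pass the edgeR test (adjusted p = 0.495).

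Mast cells are a further known source of Kit RNA, and their other genes were lower in the tumour libraries. Of 9 mast cell genes, 8 were tested and 7 were called lower in tumours, and the 9 summed to 1.46 to 15.8 CPM in tumours and to 94.4 to 155 CPM in epithelium, with every tumour below. The call for Hdc was lost in 10 of the 12 fits that left out a library (edgeR adjusted p up to 0.157). That for Ms4a2 was lost on leaving out any epithelium library (up to 0.138). The mast cell carboxypeptidase Cpa3 had a median of 0.339 CPM in tumours and a mean of 24.6 CPM in epithelium. Tumour 21, highest in Kit at 411 CPM, was also the tumour highest in the mast cell sum at 15.8 CPM, whereas tumour 27 had 261 CPM of Kit beside a mast cell sum of 1.52 CPM.

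Of 18 genes for the Kit ligand and for signalling below the receptor, Dok1 and Src were called higher and Cblb and Ptpn6 lower, and their median log2 fold change was 0.05. Kitl, the ligand itself, had a log2 fold change of -0.77 (edgeR adjusted p = 0.396), with 23.2 to 261 CPM in tumours and 106 to 214 CPM in epithelium. Cblb, a ubiquitin ligase that directs activated receptors to degradation, fell in tumours, to a mean of 50.6 ± 13.2 CPM (SD, n = 9) against 162 ± 2.50 CPM in epithelium (SD, n = 3). Ptpn6, a phosphatase abundant in leukocytes, fell beside the B and T cell genes, with a log2 fold change of -1.47 and an edgeR adjusted p = 0.000697. The calls for Cblb and Ptpn6 held whichever library was left out, whereas Dok1 was lost on leaving out any of the 3 epithelium libraries (up to 0.106) and Src in 7 of the 12 such fits (up to 0.173).

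Elf5, Ehf and Elf3 are epithelial members of the ETS family of transcription factors. Elf5 drives alveolar differentiation downstream of prolactin, Ehf regulates epithelial genes in many surface tissues, and Elf3 is a related factor known from gut and other lining epithelia and induced in inflammation. Elf5 (103411688 to 103450989, plus strand) and Ehf (103263433 to 103303278, minus strand) are close neighbours on chromosome 2, and Elf3 lies on chromosome 1 from 135253575 to 135258568 (minus strand). Elf3 shares 162 exonic bases with the antisense gene Gm26642, which reached 1.77 CPM at most.

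Elf5 had a lowest value of 1.83 (tumour 1), a median of 168 and a highest value of 419.6 CPM (tumour 14) in tumours, against 24.3, 61.2 and 38.1 CPM in epithelium. Tumours 4, 5, 14, 17, 21, 24 and 27 lay above every epithelium library, tumour 20 within their range at 40.2 CPM, and tumour 1 below it. Tumour 27 lay within that range without scaling factors, at 69.8 CPM against 28.8 to 72.6 CPM. Means were 172 ± 137 CPM in tumours (SD, n = 9) and 41.2 ± 18.7 CPM in epithelium (SD, n = 3). The log2 fold change of 2.06 (SE 1.05) did not pass the edgeR test (adjusted p = 0.177). Without tumour 1 it was 2.26 and did pass (edgeR adjusted p = 0.0407), so the call for Elf5 turns on a single library.

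Ehf followed Lcn2 in the size of its difference. It had a lowest value of 4.12 (tumour 1), a median of 768 and a highest value of 1159 CPM (tumour 5) in tumours, against 68.9, 117 and 76.1 CPM in epithelium. The other 8 tumours all lay above the highest epithelium library, tumour 20 only just, at 128 CPM. Means were 631 ± 406 CPM in tumours (SD, n = 9) and 87.2 ± 25.6 CPM in epithelium (SD, n = 3). Its log2 fold change of 2.85 (SE 1.09) missed the threshold over all 12 libraries (edgeR adjusted p = 0.0808) and passed without tumour 1, at 3.04 (adjusted p = 0.00542). DESeq2, which called 13.6% of 28243 genes higher, also called Ehf, at 2.86 (adjusted p = 0.00781).

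Elf3 had a lowest value of 13.5 (tumour 20), a median of 34.9 and a highest value of 103 CPM (tumour 5) in tumours, against 22.5, 36.5 and 22.1 CPM in epithelium. Tumours 1, 5, 17 and 24 lay above the epithelium, tumour 20 below, and the remaining 4 inside its range. Of these, tumour 4 lay below the range without scaling factors, at 19.4 CPM against 25.6 to 43.3 CPM. The log2 fold change of Elf3 was 0.85 (SE 0.51, edgeR adjusted p = 0.252). Elf3 was the one gene of the 8 for which tumour 1 lay above every epithelium library, at 80.7 CPM, although the same tumour had the lowest Elf5 and Ehf.

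Among 23 other ETS genes, 21 were tested, 3 were called higher in tumours and 7 lower, with a median log2 fold change of -0.19. The largest change upward was in Etv4, a factor of the PEA3 group that responds to growth factor signalling, with 18.1 to 120.3 CPM in tumours and 2.33 to 6.13 CPM in epithelium and a mean of 54.5 ± 34.0 CPM in tumours (SD, n = 9) and 4.48 ± 1.95 CPM in epithelium (SD, n = 3; edgeR adjusted p = 0.0029). Etv5, of the same group, rose by 3.06 on the log2 scale (edgeR adjusted p = 0.00607). Etv6 was called higher as well, and the call was lost in 5 of the 12 fits that left out a library (adjusted p up to 0.150). Ets1, Fli1 and Spic, which are abundant in lymphocytes, endothelium or macrophages, fell in tumours; Ets1 averaged 113 ± 48.2 CPM in tumours (SD, n = 9) and 640.0 ± 15.6 CPM in epithelium (SD, n = 3). In the same libraries all 6 B cell genes and all 10 T and NK cell genes were called lower in tumours, and their part in the ETS result was not tested.

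Aldh1a3 encodes an aldehyde dehydrogenase that makes retinoic acid from retinal and accounts for much of the aldehyde dehydrogenase activity used to sort human mammary progenitors. The gene lies on chromosome 7 from 66390890 to 66427517 (minus strand). It was the single gene of the 8 with no tumour above the epithelium. Aldh1a3 had a lowest value of 1.77 (tumour 24), a median of 19.1 and a highest value of 59.9 CPM (tumour 5) in tumours, against 77.9, 39.9 and 65.3 CPM in epithelium. Tumours 5 and 27 lay within the epithelium range and the other 7 below it, tumours 4, 14 and 24 under 5 CPM. The log2 fold change of -1.40 (SE 0.78) did not pass the edgeR test (adjusted p = 0.210), while limma-voom with a quality weight for each group, which called 26.2% of all genes lower, gave -2.03 (adjusted p = 0.00951).

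Of 19 other genes of retinoic acid synthesis, transport, degradation and response, 1 was called higher in tumours and 2 lower, Aldh1a1 and Adh1, with a median log2 fold change of 0.43. The 19 genes summed to 552 to 1965 CPM in tumours and to 374 to 437 CPM in epithelium, with every tumour above. Aldh1a1, which makes retinoic acid as Aldh1a3 does, fell to 0.975 to 10.6 CPM in tumours, against 22.5 to 26.0 CPM in epithelium, with a log2 fold change of -2.57 (edgeR adjusted p = 0.00642). Adh1, which oxidises retinol, sat at the threshold (edgeR adjusted p = 0.0496) and was lost in 10 of the 12 fits that left out a library (up to 0.146).

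Cd14 is a co-receptor that hands bacterial lipopolysaccharide to Tlr4, known both from monocytes and macrophages and from luminal progenitors. Cd14 had a lowest value of 11.9 (tumour 20), a median of 141 and a highest value of 549 CPM (tumour 4) in tumours, against 67.1, 75.5 and 51.7 CPM in epithelium. Tumours 4, 5, 14, 17, 21 and 27 lay above all epithelium libraries and tumours 1, 20 and 24 below all of them. Without scaling factors tumour 17 lay within the epithelium range, at 80.8 CPM against 59.9 to 89.5 CPM. Means were 173 ± 174 CPM in tumours (SD, n = 9) and 64.8 ± 12.1 CPM in epithelium (SD, n = 3), and the log2 fold change of 1.42 (SE 0.94) did not pass the edgeR test (adjusted p = 0.295). Tumour 4 was highest in Cd14 with and without scaling factors, but its lead depends on them. It had 549 CPM against 287 CPM in tumour 14 with the factors, and 306 against 305 CPM without them.

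Macrophage genes moved with Cd14 in some tumours and not in others. The 12 macrophage and monocyte genes, of which 4 were called higher (C1qa, C1qb, C1qc and Fcgr1) and 1 lower (Marco), summed to 614 to 3573 CPM in tumours and to 929 to 1266 CPM in epithelium. Tumour 20 was lowest in both Cd14 and the macrophage sum. Tumour 4 was highest in both with its scaling factor, whereas without the factors its macrophage sum was 1989 CPM and that of tumour 21 was 3723 CPM. Tumour 1 had a macrophage sum of 1849 CPM with 32.3 CPM of Cd14, and tumour 27 had a sum of 773 CPM with 141 CPM. Each of the 3 calls for C1q genes was lost without any 1 of the epithelium libraries (adjusted p up to 0.118), that for Fcgr1 without epithelium 1 or 2 (up to 0.0527), and that for Marco was kept in all 12 such fits. The part of macrophages in the Cd14 values was not tested.

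Of 11 genes of the lipopolysaccharide receptor and its relay, edgeR called 0, with 2 at an unadjusted p under 0.05, both upward, while DESeq2 called 1 and limma-voom 2, all higher. Their median log2 fold change was 0.28. Tlr4 averaged 41.1 ± 22.8 CPM in tumours (SD, n = 9) and 44.6 ± 4.49 CPM in epithelium (SD, n = 3). Lbp, the serum protein that brings lipopolysaccharide to Cd14 and a gene also listed with luminal progenitors, had 16.1 (tumour 1) to 642 CPM (tumour 5) in tumours and 23.1 to 41.1 CPM in epithelium.

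Lcn2, or lipocalin 2, is a secreted protein that binds bacterial siderophores and so withholds iron; it is made by neutrophils and by inflamed epithelia. The gene lies on chromosome 2 from 32384633 to 32388252 (minus strand), and the stretch shown above lies inside that span, outside its exons. Lcn2 had 187 (tumour 1), a median of 1875 and at most 6285 CPM (tumour 4) in tumours, against 108, 201 and 105 CPM in epithelium. All tumours but tumour 1 were above the highest epithelium library, the next lowest being tumour 21 at 485 CPM. Means were 2176 ± 1864 CPM in tumours (SD, n = 9) and 138 ± 54.7 CPM in epithelium (SD, n = 3).

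The log2 fold change of Lcn2 was 3.98 (SE 0.98, edgeR adjusted p = 0.0135), the 1 call among the 8 genes. It lay between 3.46 and 4.35 in the 18 alternatives, but lost the call without epithelium 1 (3.82, adjusted p = 0.0749) and without epithelium 3 (3.81, adjusted p = 0.0745), which leave 2 epithelium libraries. Without the scaling factor tumour 4 had 3498 CPM and remained the highest. Lcn2 took between 0.0167% (tumour 1) and 0.350% (tumour 4) of all gene counts in tumours and between 0.0121% and 0.0238% in epithelium.

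Ltf, or lactoferrin, is an iron-binding protein of milk and of neutrophil granules. The gene lies on chromosome 9 from 111019271 to 111042767 (plus strand). Ltf had 8.99 (tumour 20), a median of 75.0 and at most 3389 CPM (tumour 5) in tumours, against 272, 167 and 234 CPM in epithelium. Tumours 5 and 14 lay above the epithelium, tumours 21 and 27 within its range, and tumours 1, 4, 17, 20 and 24 below it. Tumour 21 lay just below the range without scaling factors, at 194 CPM against 198 to 323 CPM. The mean was 496 ± 1096 CPM in tumours (SD, n = 9) and 225 ± 53.3 CPM in epithelium (SD, n = 3), so the mean lay above and the median below the epithelium.

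The direction for Ltf therefore rested on tumour 5. The log2 fold change was 1.14 (SE 1.57, edgeR adjusted p = 0.629) with all libraries and -0.74 (adjusted p = 0.619) without tumour 5. DESeq2, which replaced the 96760 counts of tumour 5 by 4443 as an outlying value, gave -0.74, and limma-voom gave -1.14. Lcn2 and Ltf also parted within tumours: tumour 4 had the highest Lcn2, 6285 CPM, and 16.1 CPM of Ltf.

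**Figure D2:**
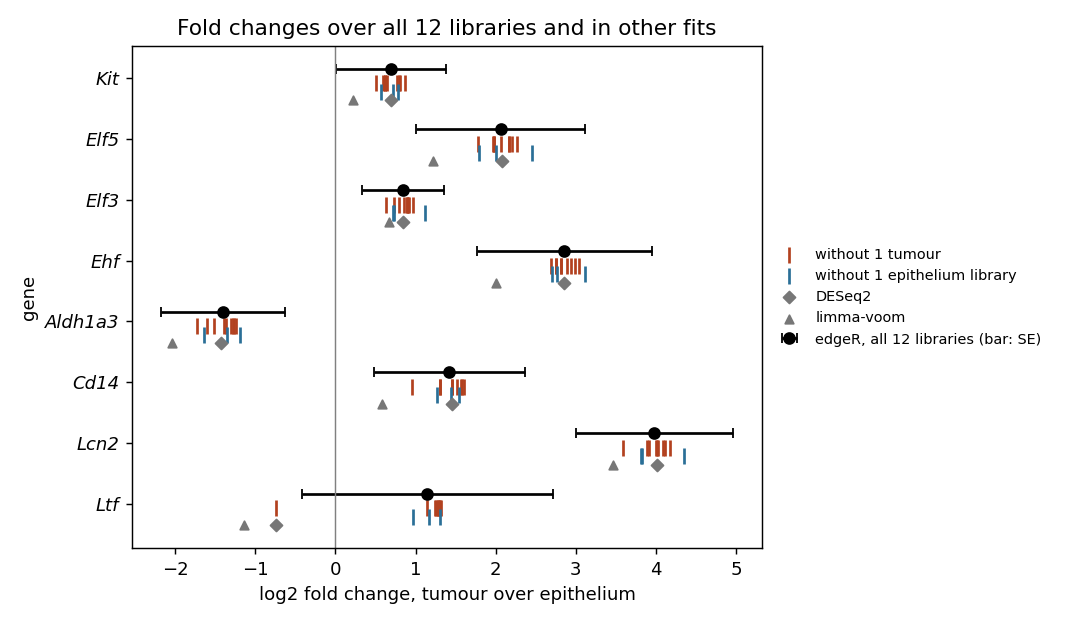
Log2 fold change of each gene, tumour over epithelium, over all 12 libraries with its SE and in other fits (DESeq2, limma-voom and each library left out). The fits with other scaling or other filters are not drawn. Lcn2 lies between 3.46 and 4.35 in the alternatives, and Ltf lies on both sides of 0, between -1.14 and 1.31.

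Neutrophil genes were high in some tumours and low in others. Of 12 neutrophil genes, 9 were tested and edgeR called 0, with 1 at an unadjusted p under 0.05 (Csf3r, upward), while DESeq2 and limma-voom each called 2 higher, and their median log2 fold change was 1.70. The 12 summed to 17.4 (tumour 27) to 492 CPM (tumour 1) in tumours and to 27.2 to 51.3 CPM in epithelium. Tumours 1, 4, 5 and 21 lay above all epithelium libraries, with 492, 307, 209 and 83.7 CPM, and tumours 17, 20, 24 and 27 lay below all of them. Tumours 4 and 5, highest in Lcn2, thus had high neutrophil sums. In tumour 4 the sum came mainly from S100a8 and S100a9, at 131 and 119 CPM. In tumour 5 these genes stood at 50.0 and 50.2 CPM and were a smaller part of the sum. In tumour 1, lowest in Lcn2, Mmp9 made up 371 CPM of the sum. That tumour was also the highest in Csf3r and Cxcr2, at 51.8 and 19.5 CPM. Those 2 genes stood at 19.3 and 11.5 CPM in tumour 4 and at 48.9 and 18.7 CPM in tumour 5. The 4 tumours with the lowest neutrophil sums had 836 to 2952 CPM of Lcn2, above every epithelium library. The part of neutrophils in the Lcn2 and Ltf values was not tested.

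**Figure D3:**
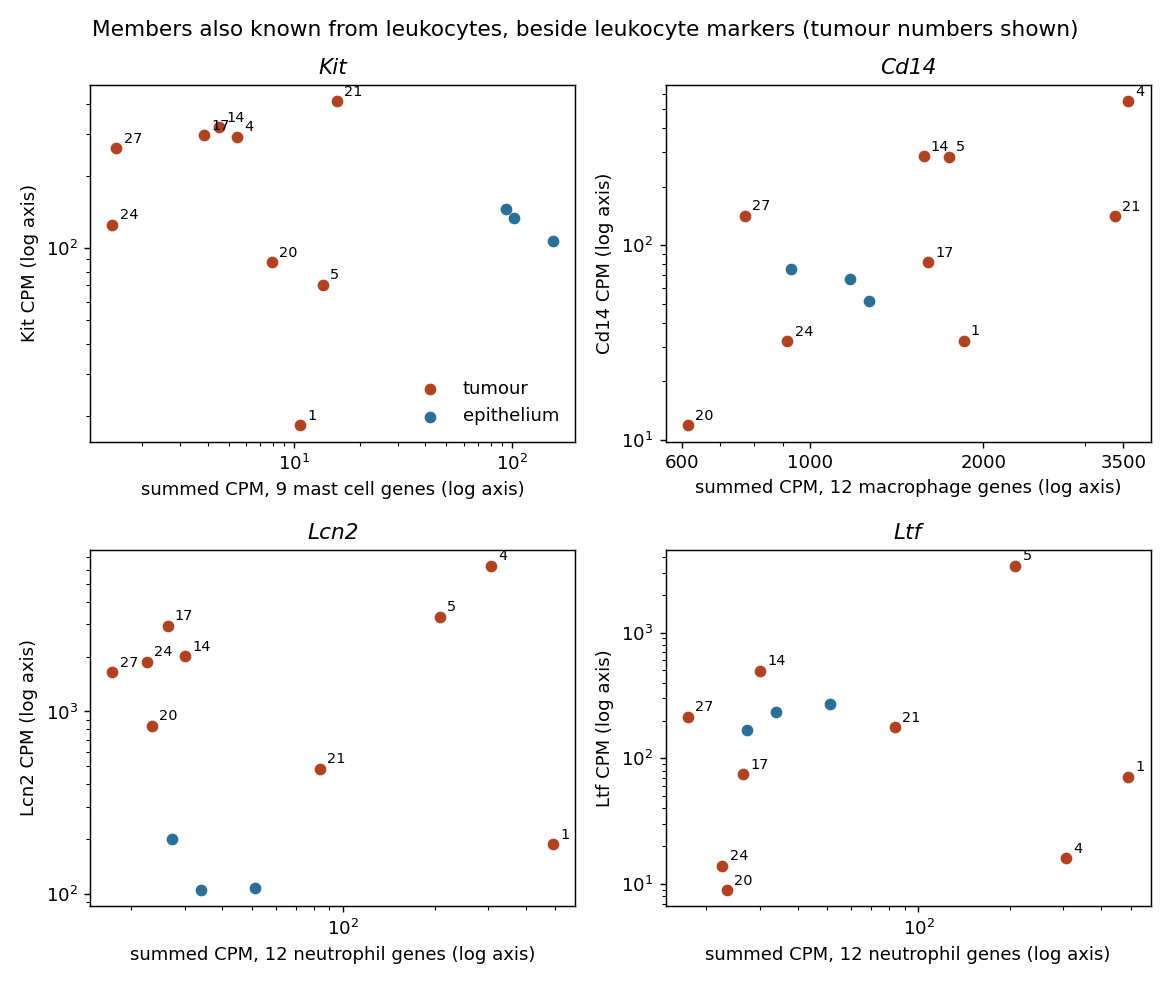
CPM of Kit, Cd14, Lcn2 and Ltf in each library (log axes) against the summed CPM of mast cell genes, of macrophage genes, or of neutrophil genes; tumour numbers stand beside the points. All 9 tumours lie left of the epithelium in the mast cell sum, and tumours lie on both sides of the epithelium in the neutrophil sum, tumours 4 and 5 at 307 and 209 CPM and tumour 17 at 26.4 CPM.

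Of 18 further genes of iron binding and innate defence, 3 were called higher in tumours (Pglyrp1, Saa3 and Tfrc) and 3 lower (Nfkbiz, Il17ra and Il1r1), and the median log2 fold change was 0.52. Pglyrp1, which binds bacterial cell wall, had 2.16 (tumour 1) to 193 CPM (tumour 17) in tumours and 4.07 to 4.97 CPM in epithelium, and rose by 4.34 on the log2 scale (edgeR adjusted p = 0.0171). Saa3, an acute phase protein, rose by 4.91 on the log2 scale (edgeR adjusted p = 0.0165). Nfkbiz, a partner of NF-kappaB that is needed to switch on Lcn2, fell to 63.5 ± 27.02 CPM in tumours (SD, n = 9) against 283 ± 48.7 CPM in epithelium (SD, n = 3; log2 fold change -2.16, edgeR adjusted p = 0.000523). Il17ra and Il1r1 are receptors for cytokines that induce Lcn2, and both fell, Il17ra to a mean of 32.2 ± 13.8 CPM in tumours (SD, n = 9) against 90.8 ± 7.02 CPM in epithelium (SD, n = 3; edgeR adjusted p = 0.0107), and Il1r1 by 1.53 on the log2 scale (edgeR adjusted p = 0.0168). Of these 6 calls, that of Nfkbiz was kept whichever library was left out, those of Pglyrp1 and Saa3 were lost on leaving out any epithelium library (p up to 0.0832), that of Tfrc in 8 of 12 fits (up to 0.167), that of Il17ra without epithelium 3 (0.0568) and that of Il1r1 without epithelium 1 or 3 (up to 0.0760).

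Among 16 other luminal progenitor and alveolar genes, 1 was called higher in tumours and 3 lower, with a median log2 fold change of 1.03. Wfdc18, a small secreted protein of the alveolar lineage, had 2.19 (tumour 1) to 2769 CPM (tumour 4) in tumours and 27.5 to 43.7 CPM in epithelium (log2 fold change 4.55, edgeR adjusted p = 0.0410). Cd55, a complement regulator and surface marker of luminal progenitors, fell in tumours to a mean of 23.6 ± 22.9 CPM (SD, n = 9) against 202 ± 37.9 CPM in epithelium (SD, n = 3; edgeR adjusted p = 0.0204). Stat5b and Gata2 were also called lower, by 1.11 and 1.70 on the log2 scale. None of these 4 calls was kept when any 1 epithelium library was left out (adjusted p up to 0.152 for Wfdc18), and those of Wfdc18 and Stat5b were also lost without tumour 14, and that of Wfdc18 without tumour 5 or 24.

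Milk protein genes also ranged widely between tumours. Of 8, 7 were tested, Glycam1 was called lower and none higher by edgeR, with 1 higher at an unadjusted p under 0.05 and 2 called higher by DESeq2 and by limma-voom, and their median log2 fold change was 3.69. Csn3, or kappa-casein, had 1.83 (tumour 1) to 5340 CPM (tumour 17) in tumours and 114 to 135 CPM in epithelium. Glycam1, a mucin-like protein of milk and of lymph node vessels, had at most 1.73 CPM in tumours and a mean of 820 ± 214 CPM in epithelium (SD, n = 3; log2 fold change -10.37, edgeR adjusted p = 1.56e-05), beside the B and T cell sums given above.

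The label of the tumours as mammary and epithelial was checked with markers. Of 10 epithelial and luminal genes, 3 were called higher in tumours (Epcam, Cdh1 and Cldn3) and none lower, and the 10 summed to 1238 to 8101 CPM in tumours and to 1998 to 3119 CPM in epithelium. Those calls were lost without epithelium 3 in all 3 genes and, for Epcam and Cdh1, on leaving out any epithelium library (p up to 0.162), and that of Cdh1 also without tumour 5, 14, 17, 21, 24 or 27. Of 12 hormone-sensing luminal genes, Esr1, Pgr and Areg were called lower and none higher, and the sum was 76.2 to 1307 CPM in tumours and 1410 to 2493 CPM in epithelium, with every tumour below. Each of these 3 calls was lost without epithelium 1 or without epithelium 3, and that of Pgr also without epithelium 2 or tumour 5, 14 or 20 (adjusted p up to 0.109). Of 10 basal genes edgeR called 0 in either direction, also with 0 at an unadjusted p under 0.05, while DESeq2 called 4 lower and limma-voom 7. Their sum was 240 (tumour 24) to 4992 CPM (tumour 27) in tumours and 1552 to 2091 CPM in epithelium. By that sum 7 tumours lay below all epithelium libraries and 2 above.

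Taken tumour by tumour, the 8 genes gave 72 values, of which 40 lay above all 3 epithelium libraries, 21 below all and 11 within their range. Without scaling factors, a setting chosen after seeing the data, 6 of the 72 changed place, and 37 lay above, 24 below and 11 within. Kit, Elf5, Elf3, Ehf, Cd14 and Ltf had tumours on both sides of the epithelium range, 6 of 8 against 58.2% of all genes tested. None of the 8 separated the groups fully, against 24.3% of all genes tested (10.2% with every tumour above and 14.1% with every tumour below). In 8 of the 9 tumours some of the genes lay above and others below the epithelium. Tumours 5, 14 and 17 had 6 genes above the epithelium, tumours 4, 21 and 27 had 5, tumour 24 had 4, tumour 20 had 2 and tumour 1 had 1. Tumour 27 was the exception, with none below.

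**Figure D4:**
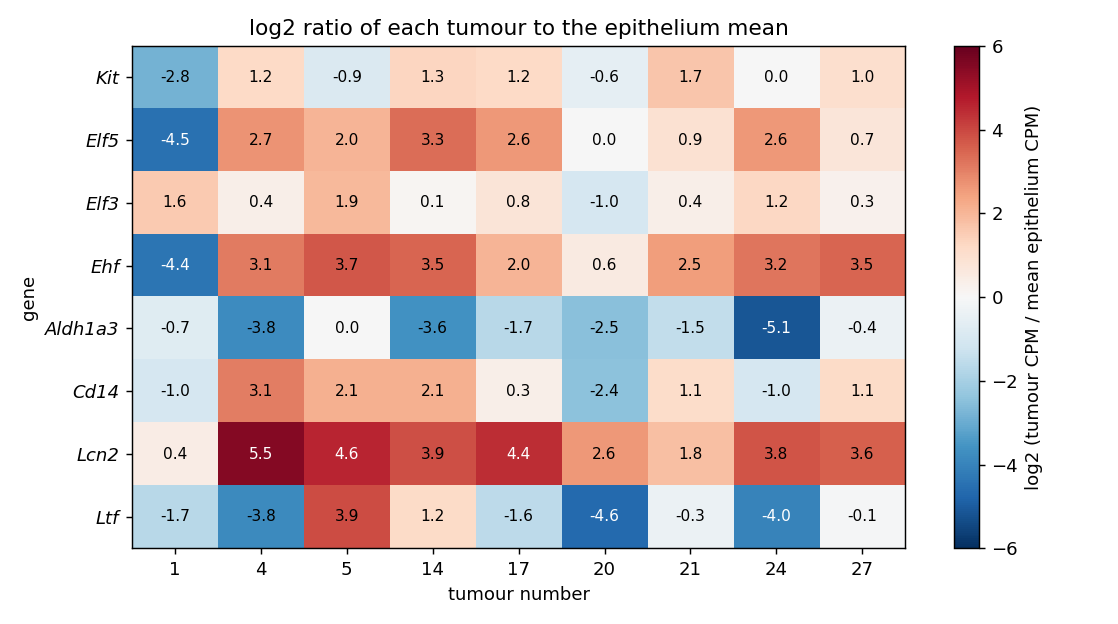
Log2 ratio of each tumour's CPM to the mean of the 3 epithelium libraries, with genes down the page and tumours across. Tumour 1 is negative in Kit, Elf5, Ehf, Aldh1a3, Cd14 and Ltf, and Ehf and Lcn2 are positive in every other tumour.

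Tumour 1 was low in most of the 8 genes. It was lowest of all tumours in Kit, Elf5, Ehf and Lcn2, and its Elf5 value came from 55 counts in a library of 33600076. It also had the lowest Sox10, a factor of progenitor and neural crest cells, at 1.43 CPM, against a median of 237 CPM over the tumours. Yet tumour 1 had the highest sum of epithelial and luminal genes, with 1307 CPM of Epcam, 1460 CPM of Krt8 and 1969 CPM of Krt18. Tumour 20, lowest in Elf3, Cd14 and Ltf, had the lowest epithelial sum, 1238 CPM. Tumour 5 was highest in Elf3, Ehf, Aldh1a3 and Ltf.

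The spread of log2 CPM over the 9 tumours was wide for most of the genes. The SD was 2.75 for Ltf, 2.58 for Ehf, 2.38 for Elf5, 1.80 for Cd14, 1.72 for Aldh1a3, 1.55 for Lcn2, 1.45 for Kit and 0.87 for Elf3, and the median over the 12530 genes averaging 5 CPM or more was 0.67. These SDs were larger than those of 99.0%, 98.6% and 97.9% of such genes for Ltf, Ehf and Elf5, and of 69.6% for Elf3. Over the 3 epithelium libraries the SD was between 0.23 for Kit and 0.67 for Elf5.

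Levels of different genes can be compared only per length of exon. In CPM per kilobase, the medians over tumours were 715 for Lcn2, 138 for Ehf, 81.3 for Cd14, 29.3 for Kit, 28.6 for Elf5, 21.7 for Ltf, 15.8 for Elf3 and 4.14 for Aldh1a3. The means over epithelium were 65.1 for Ltf, 52.6 for Lcn2, 37.4 for Cd14, 15.6 for Ehf, 14.5 for Kit, 13.2 for Aldh1a3, 12.2 for Elf3 and 7.01 for Elf5. Several neighbours in these orders overlapped, such as Ltf (48.5 to 79.0) and Lcn2 (40.0 to 76.6) or Kit and Ehf in epithelium, and Kit and Elf5 in tumours.

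The 28 pairs of genes were compared across the 9 tumours on log2 CPM. Pearson's r was positive in 20 pairs, 5 had an unadjusted exact permutation p under 0.05 (two-sided, all 362880 pairings), and none passed after adjustment over the 28. For Elf5 and Lcn2 r was 0.85 (exact permutation p = 0.00418, adjusted 0.117) and Spearman's rho 0.78 (exact permutation p = 0.0172, adjusted 0.339), and r was 0.60 without tumours 1 and 20, those farthest from the median of Elf5. For Elf5 and Ehf r was 0.92 (exact permutation p = 0.00979, adjusted 0.137) but rho was 0.42 (exact permutation p = 0.270, adjusted 0.627), and r without tumours 1 and 20 was 0.02, so that this relation rests on those tumours. Without tumour 4 a single pair passed, Cd14 and Ltf, with r of 0.91 over 8 tumours (exact permutation adjusted p = 0.0368), against 0.55 over all 9 (adjusted 0.341).

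The genes whose pattern over the 9 tumours was most like each of the 8 were found among 11721 others, by the root mean square difference of log2 CPM after centring each gene on its median. For Kit it was Trim2 (0.476), for Elf5 Pglyrp1 (0.831), for Elf3 Nfil3 (0.327), for Ehf Wfdc18 (0.822), for Cd14 Epsti1 (0.628) and for Ltf Fer1l4 (1.27). Pkp1 (0.764) was among the 3 nearest to Aldh1a3, and Smim22 (0.669) among the 3 nearest to Lcn2. Elf5 was among the 3 nearest to Ehf, at 1.02, and no other pair of the 8 genes met in this way. For Cd14 the next were Mx1 (0.673) and Gbp2b (0.693), which with Epsti1 are known as interferon-induced genes. These are descriptions over 9 libraries that share tumour 1 as the lowest for several genes, and the nearest gene of Ltf was farther from it than that of any other of the 8.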

How the data were processed

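Per the labels, total RNA of 9 mammary tumours and 3 epithelium preparations went into stranded TruSeq library preparation. The authors deposited raw counts per gene symbol, without normalization, and 5 summary rows per library, which were kept out of totals and tests. Listed in the submitters' processing notes are HTSeq 0.11.0, TopHat2 2.1.1, FastQC 0.11.8 and the build GRCm38. The annotation release, the strand setting and the unit counted (reads or pairs) were not given in the sources used here. Without a known strand setting, reads of Elf3 and its antisense partner cannot be told apart.

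Of 54658 symbols 54106 matched GENCODE M21 (GRCm38), used for positions and exonic length. Groups came from the library titles. Counts were fitted with edgeR 4.0.16 in R 4.3.3 (filterByExpr, trimmed mean of M values, robust quasi-likelihood F test, Benjamini-Hochberg over all genes tested, called under 0.05). Each SE was the size of the log2 fold change divided by the root of F. CPM are scaled by the same factors and carry no prior count; log2 CPM used a prior count of 2. DESeq2 1.42.0, limma 3.58.1, other scalings and filters and leaving out each library were alternatives. DESeq2 gave no adjusted p for 10586 of 38829 genes. Permutation tests and figures used scipy 1.17.1, matplotlib 3.10.9, pandas 2.3.3 and numpy 2.4.6 under Python 3.11.15. On simulated data of the tumour against epithelium comparison (20928 genes), edgeR recovered 0%, 34%, 80% and 100% of 50 genes each changed 2-fold, 4-fold, 8-fold and 16-fold, with 5 false calls among 112. Promoter sequences are from RefSeq (GRCm38.p6), clipped to bases outside GENCODE exons.

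The 8 genes and 18 gene lists (212 genes, 205 tested) were chosen with earlier results of these data known. The named-gene rule took the 8 genes, the called members of each list with the smallest adjusted p, up to 3 in each direction, and the 3 genes nearest to each of the 8 in pattern; other list genes were named after their values were seen. A few genes that the rule names are not reported here. No library was a copy, since the least chi-square per degree of freedom for a pair in 1 group was 243 (tumours) and 26.6 (epithelium). Floors of 3 counts reflect counting error alone, as reads lacking molecular identifiers can be duplicates of 1 molecule.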

Additional observations from a re-analysis of the deposited data

Results flagged for a closer look

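The Ltf value of tumour 5, 3389 CPM, stood apart from the other 8 tumours, the next being tumour 14 at 499.5 CPM; the gap between them was 0.855 of the whole range of the tumours. A single sample far from the others marks this value. The threshold used is passed by chance in about 1 in 20 groups of normally distributed values, and 8 genes were looked at. The gap was measured on CPM, not on log2 CPM. Ltf was skewed in tumours, with a mean of 496 and a median of 75.0 CPM, so that rate need not hold here. In the same library Lcn2 was at 3311 CPM and the 12 neutrophil genes summed to 209 CPM, against 27.2 to 51.3 CPM in epithelium. The part that cells other than tumour epithelium play in the Ltf value was not tested.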

How the results depend on the processing

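Kit, Elf3 and Cd14 kept their direction and stayed uncalled in all 18 alternatives. With DESeq2, 2 of the 8 genes were called higher (Ehf at 2.86 on the log2 scale), and with limma-voom 1 was called lower (Aldh1a3 at -2.03); the cause was not tested. Ltf turned to -0.74 with DESeq2, which replaced the count of tumour 5, and to -1.14 with limma-voom. When each library was left out in turn, the number of genes called higher ran from 0 (without epithelium 1 or 3) to 3 (without tumour 1), and the log2 fold change ran from 1.78 to 2.46 for Elf5, 2.70 to 3.12 for Ehf, 3.59 to 4.35 for Lcn2 and -0.74 to 1.31 for Ltf. Of the 205 listed genes tested, 17 were called higher and 50 lower; DESeq2 called 32 higher, limma-voom 37 higher and 85 lower, and leaving out a library gave 3 to 21 higher and 37 to 62 lower. Of the pairs of genes across tumours, 0 to 1 passed when a tumour was left out. Upper quartile scaling put the all-gene median at 0.07, against 0.17 on the log2 scale. Over all genes, leaving out an epithelium library gave 506 to 548 genes called higher, against 1908. An effect of depth was not tested. No paired analysis was possible because the groups share 1 replicate number only.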
